A study of Mus musculus with 4 samples.

Results

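The genes described here are 10 genes of the ATF4 arm of the integrated stress response: Atf4, Ddit3, Atf5, Trib3, Chac1, Asns, Ddit4, Sesn2, Psat1 and Slc7a11. They were chosen by symbol, from knowledge of the pathway, with earlier results of these data already known. All 10 were found among the 49997 gene symbols of the count tables. RNA was measured in 4 cultures of wild-type iMOP cells, an immortalized mouse line of multipotent otic progenitors, which are the cells that give rise to the sensory and neuronal cells of the inner ear. Cultures 1 and 2 of proliferating iMOP cells were grown in DMEM/F12 medium with B27, carbenicillin at 25 µg/ml and basic FGF at 20 ng/ml. Cultures 1 and 2 of iMOP-derived neurons were grown in Neurobasal medium with N21, L-glutamine at 2 mM and 1 µM K03861, which blocks CDK2, a kinase of the cell cycle. Cell state, medium, growth factor and inhibitor therefore differ together between the groups and cannot be told apart. All 4 cultures come from the same line, and how long the neurons were differentiated is not given in the labels.

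The integrated stress response links several kinds of stress to a single switch in translation. The kinases HRI, PKR, PERK and GCN2 phosphorylate the initiation factor eIF2, which lowers general protein synthesis while the Atf4 mRNA is translated more. The ATF4 protein, a basic leucine zipper factor, then raises transcription of genes for amino acid synthesis and uptake, redox balance and, under lasting stress, cell death. Because ATF4 is controlled largely at translation, the level of its mRNA is not a measure of the protein.

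ATF4 binds, with C/EBP family partners, a composite element known as the C/EBP-ATF response element or amino acid response element. The motif TGATGNAA, which includes the stricter TGATGCAA, was searched on both strands from 250 bases before to 50 bases after each RefSeq start site (GRCm38.p6, the assembly also called mm10). All 10 genes had an entry in the promoter table, and 4 of the 10 held TGATGNAA, against 4.51% of the 27025 genes with a promoter. TGATGCAA was found in 2 of the 10, against 1.03% of genes. The 3 promoters with a motif upstream of the start site are shown because they place the motif next to the genes' values, with the motif, on either strand, in capitals and the sequence 5′ to 3′ on the strand of the gene.

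Asns, chr6:7693210-7693254, minus strand, bases -45 to -1 from the start site: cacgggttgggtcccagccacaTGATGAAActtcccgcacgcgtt

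Chac1, chr2:119351027-119351078, plus strand, bases -215 to -164: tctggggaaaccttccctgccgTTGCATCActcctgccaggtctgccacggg

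Slc7a11, chr3:50443631-50443701, minus strand, bases -88 to -18: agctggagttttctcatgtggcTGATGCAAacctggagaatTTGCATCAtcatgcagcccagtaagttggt

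In Asns the motif read TGATGAAA on the strand of the gene. In Chac1 it lay on the opposite strand. Slc7a11 held TGATGCAA 2 times, facing in opposite directions, at bases -66 to -59 and -47 to -40. The other gene with a match, Trib3, held TGATGTAA on the opposite strand at bases 15 to 22 after the start site. No match in the windows of the other genes says only that these letters are not there, and a match is not a bound site.

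Each library held 7446361 to 14484011 counts, of which 53.3% to 76.1% fell on the 18S ribosomal RNA row, and 2595578 to 3850766 counts remained without it. The 18S share was 53.3% and 59.4% in the replicate 1 libraries and 75.0% and 76.1% in the replicate 2 libraries. Proliferating replicate 2 had the fewest genes with a count (17762, against 20012 to 21637 in the others). Summed neuronal markers (12 genes) were at 165 and 352 CPM (counts per 1000000, scaled by the TMM method) in proliferating cultures and at 202 and 368 CPM in neuron cultures. The groups thus overlapped in this sum, of which Tubb3 alone made 194 CPM in proliferating replicate 2. Elavl4 was at 7.56 and 12.2 CPM in proliferating cultures against 17.7 and 38.0 CPM in neuron cultures, and Map2 at 93.9 and 92.3 against 121 and 141 CPM. Only these neuronal markers had both neuron libraries above both proliferating libraries. Tubb3, Dcx, Elavl3, Mapt, Stmn2, Nefl, Nefm, Syt1 and Snap25 overlapped between the groups. Dcx (22.9 against 22.6 CPM in replicate 1), Elavl3, Mapt, Syt1 and Snap25 were lower in neurons in replicate 1 and higher in replicate 2. Tubb3, Nefl and Nefm, the last with at most 1 count a library, were higher in replicate 1 and lower in replicate 2. Stmn2 was lower in neurons in both, with 4 and 60 counts in proliferating cultures against 3 and 35. Elavl3, for example, was at 12.2 and 21.3 CPM in proliferating cultures against 7.49 and 27.8 CPM in neuron cultures. Gap43 had 0 counts in both neuron libraries and in proliferating replicate 1. Summed otic progenitor markers (9 genes) were at 154, 318, 164 and 68.7 CPM in proliferating replicates 1 and 2 and neuron replicates 1 and 2, and Pax2 and Pax8 were at 0 in all 4. Glial markers (9 genes) summed to 73.9 and 72.0 CPM in proliferating cultures against 25.8 and 9.48 CPM in neurons, with none of them at 0 in all 4 libraries. Gfap (14.9 and 12.0 against 0.0841 and 0.204 CPM) and Fabp7 (22.3 and 49.0 against 17.7 and 0.917 CPM) did not overlap between the groups. Cnp and Aqp4 overlapped, Aqp4 with 356 and 2 counts in proliferating cultures against 31 and 5. The other glial markers had at most 7 counts a library. Mesenchymal markers (9 genes, Col1a2, Dcn and Pdgfrb at 0 in all 4) summed to 9.28 to 18.2 CPM, hair cell markers (5 genes, Pou4f3 and Otof at 0) to 0.0841 to 9.68 CPM and immune and endothelial markers (6 genes, Ptprc at 0) to 0.714 to 1.40 CPM. The part of these cell mixtures in the results below was not tested. In such bulk samples, fewer cells that express a gene and less RNA of it per cell cannot be told apart.

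Neurons were compared with proliferating cells to see whether mRNA levels of the ATF4 program differ between the cell states. Levels are given for replicate 1 and then replicate 2 of a group, and a pair is the neuron and the proliferating library with the same replicate number. In pair 1 all 10 genes had a higher level in neurons than in proliferating cells, beside 50% of the 12783 tested genes. In pair 2 7 of the 10 had a lower level in neurons, beside 46.7% of tested genes. Atf5, Asns and Ddit4 were higher in neurons in both pairs (3 of 10, beside 28.8% of tested genes), and 0 of 10 were lower in both (beside 25.5%). The median log2 difference of the 10 genes was 0.52 in pair 1 and -0.34 in pair 2, against 0.07 for all tested genes in pair 2. With RLE factors Ddit4 was lower in pair 2 (8 of 10 lower). With library size alone, which put the median of all tested genes at -0.38 in pair 1, 6 of 10 were higher in pair 1 (beside 24.4%), 8 of 10 were lower in pair 2 (beside 49.9%), Atf5 and Asns were the genes higher in both, and 4 of 10 were lower in both. All 10 passed the filter on low counts. With edgeR's quasi-likelihood test 0 of the 10 were called at an adjusted p-value under 0.05, 0 had an unadjusted p-value under 0.05, and DESeq2 called 0. Over all tested genes 0% were called in either direction, while 0.915% were higher and 2.51% lower at an unadjusted p-value under 0.05.

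**Figure D1:**
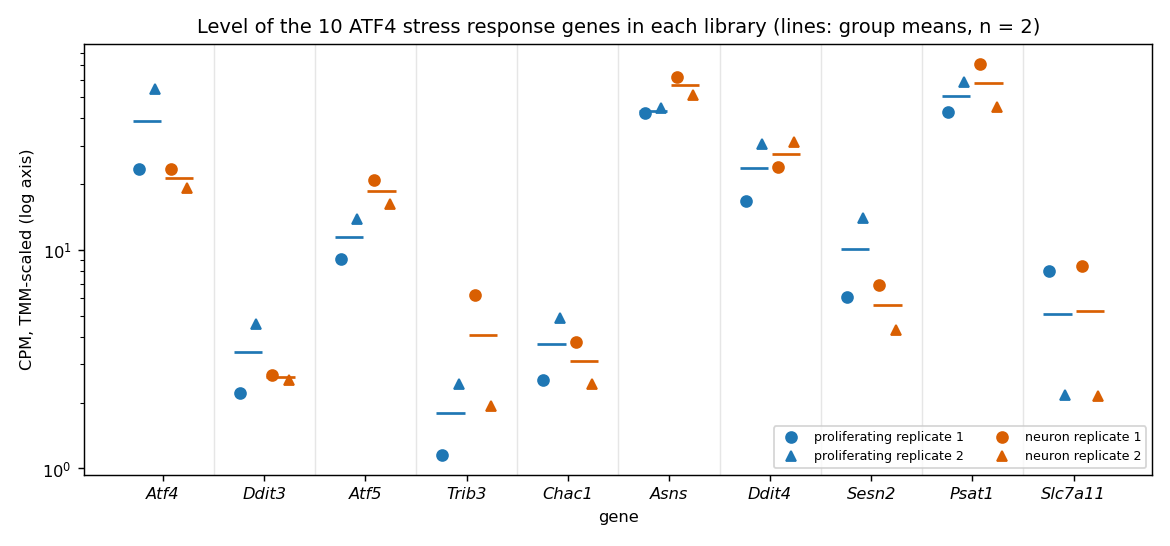
TMM-scaled CPM on a log axis for the 10 genes, with circles for replicate 1, triangles for replicate 2, blue for proliferating cells, orange for neurons and lines for group means (n = 2). Atf5 and Asns are the genes whose neuron libraries both lie above both proliferating libraries (0 genes with library size alone), and Slc7a11 separates by replicate number.

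Atf4 encodes the transcription factor at the centre of the response. It had 285 and 404 counts in proliferating replicates 1 and 2, and 280 and 189 counts in neuron replicates 1 and 2. Scaled, these were 23.4 and 54.7 CPM in proliferating cultures against 23.6 and 19.3 CPM in neurons. By TMM-scaled CPM, proliferating replicate 2 thus stood alone at a high level, while the other 3 libraries lay close together and the groups overlapped. RPKM, which divides by the column total and a gene length, was 12.1 and 12.3 in proliferating cultures against 9.31 and 4.11 in neurons. On that scale both neuron libraries were below both proliferating libraries. The proliferating mean was 39.1 ± 22.1 CPM and the neuron mean 21.4 ± 3.03 CPM (SD, n = 2 each). The fitted log2 fold change was -0.86 (SE 0.54, edgeR adjusted p-value 0.9998), and leaving out proliferating replicate 2 gave -0.13, or proliferating replicate 1 -1.37. Within the pairs the ratio of neurons to proliferating cells was 1.01 (95% exact interval 0.850 to 1.19, counting error only) for replicate 1 and 0.352 (0.295 to 0.420) for replicate 2.

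Ddit3 encodes CHOP, a factor induced by ATF4 that promotes cell death under lasting stress. Its counts were low, at 27 and 34 in proliferating cultures against 32 and 25 in neuron cultures. In CPM it was at 2.22 and 4.60 in proliferating cells and 2.69 and 2.55 in neurons, again with proliferating replicate 2 highest and the groups overlapping. The log2 fold change was -0.36 (SE 0.60, edgeR adjusted p-value 0.9998), and it turned to 0.24 without proliferating replicate 2. Its exons overlap those of Mars1, a tRNA synthetase gene on the opposite strand, by 68 of 1713 bases, and whether counting used strand is not given in the sources used here.

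Atf5 encodes a relative of ATF4 whose mRNA is under the same kind of translational control. It had 111 and 102 counts in proliferating cultures against 248 and 159 in neuron cultures, or 9.12 and 13.8 CPM against 20.9 and 16.2 CPM. Both neuron libraries were above both proliferating libraries. The means were 11.5 ± 3.31 and 18.5 ± 3.29 CPM (SD, n = 2 each), with a log2 fold change of 0.70 (SE 0.49, edgeR adjusted p-value 0.9998), so the difference did not exceed the spread between replicates by this test. The ratio was 2.29 (95% exact interval 1.82 to 2.89) in pair 1 and 1.17 (0.910 to 1.52) in pair 2. The log2 fold change was 0.40 or 0.46 when the replicate 1 library of proliferating cells or of neurons was left out. The exons of Atf5 share 82 of 1993 bases with Nup62 on the opposite strand, a nuclear pore gene with 118 and 120 counts in proliferating cultures against 186 and 142 in neuron cultures.

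Among the feedback regulators, Trib3, a pseudokinase that binds ATF4 and CHOP and restrains them, had the largest difference of the 10 genes. It had 14 and 18 counts in proliferating cultures against 74 and 19 in neuron cultures, or 1.15 and 2.44 CPM against 6.22 and 1.94 CPM. The neuron replicate 1 library was the only one that stood apart. The ratio was 5.41 (95% exact interval 3.03 to 10.4) in pair 1 and 0.795 (0.395 to 1.61) in pair 2. The log2 fold change of 1.21 (SE 0.76, edgeR adjusted p-value 0.9998) became 0.09 without neuron replicate 1 and 0.74 with proliferating replicate 1 left out, and was 1.83 or 1.81 when the replicate 2 library of proliferating cells or of neurons was left out.

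Chac1 degrades glutathione and is among the genes that ATF4 and CHOP induce. It had 31 and 36 counts in proliferating cultures against 45 and 24 in neuron cultures, or 2.55 and 4.87 CPM against 3.79 and 2.45 CPM. The groups overlapped, and the log2 fold change of -0.23 (SE 0.60, edgeR adjusted p-value 0.9998) turned to 0.29 without proliferating replicate 2 and to 0.04 without neuron replicate 2.

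Sesn2 and Ddit4 both restrain the growth kinase complex mTORC1, Sesn2 as a leucine sensor and Ddit4, also called REDD1, through the TSC complex. Sesn2 had 74 and 104 counts in proliferating cultures against 82 and 42 in neuron cultures, or 6.08 and 14.1 CPM against 6.90 and 4.28 CPM. As for Atf4, proliferating replicate 2 was highest and neuron replicate 2 lowest, with a ratio of 1.13 (95% exact interval 0.818 to 1.57) in pair 1 and 0.304 (0.207 to 0.439) in pair 2. These ratios rest on TMM scaling. By RPKM Sesn2 was at 3.74 and 3.77 in proliferating cultures against 3.26 and 1.09 in neurons, lower in both pairs. The log2 fold change was -0.84 (SE 0.59, edgeR adjusted p-value 0.9998), and it was -0.12 without proliferating replicate 2 and -0.54 with neuron replicate 2 left out, against -1.27 and -1.35 when the replicate 1 library of neurons or of proliferating cells was left out. Ddit4 had 204 and 225 counts in proliferating cultures against 285 and 305 in neuron cultures, or 16.8 and 30.5 CPM against 23.97 and 31.1 CPM. Here both replicate 2 libraries were higher than both replicate 1 libraries, and the groups overlapped. Its log2 fold change was 0.22 (SE 0.50, edgeR adjusted p-value 0.9998), and leaving out proliferating replicate 2 gave 0.72, or proliferating replicate 1 -0.17.

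Of the metabolic genes, Asns makes asparagine from aspartate and glutamine, and its promoter element is a textbook amino acid response element. It had 516 and 329 counts in proliferating cultures against 739 and 504 in neuron cultures. The levels were 42.4 and 44.5 CPM in proliferating cultures against 62.2 and 51.4 CPM in neurons, so the groups did not overlap. In the count of non-overlapping genes, Asns and Atf5 made 2 of 10 with neurons above, beside 12.9% of tested genes, and 0 of 10 had neurons below, beside 14.5%. With library size alone 0 of 10 had neurons above, beside 1.74%. The count below also depends on the scaling. By RPKM, which divides by the column total, Atf4 and Sesn2 had both neuron libraries below both proliferating libraries. The share of all tested genes below on that scale was not computed. The log2 fold change of Asns was 0.39 (SE 0.43, edgeR adjusted p-value 0.9998), and it was 0.20 without neuron replicate 1. The ratio was 1.47 (95% exact interval 1.31 to 1.64) in pair 1 and 1.15 (1.002 to 1.33) in pair 2.

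Psat1 carries out the transamination step of serine synthesis. It had 520 and 435 counts in proliferating cultures against 848 and 445 in neuron cultures, or 42.7 and 58.9 CPM against 71.3 and 45.4 CPM. Its pair ratios pointed in opposite directions beyond counting error, at 1.67 (95% exact interval 1.495 to 1.87) for replicate 1 and 0.770 (0.674 to 0.881) for replicate 2. The log2 fold change of 0.20 (SE 0.47, edgeR adjusted p-value 0.9998) was 0.49 without neuron replicate 2 and 0.45 without proliferating replicate 2, but -0.20 and -0.03 when the replicate 1 library of neurons or of proliferating cells was left out.

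Slc7a11 encodes the cystine-glutamate exchanger xCT, which supplies cystine for glutathione and is a target of both ATF4 and NRF2. It had 98 and 16 counts in proliferating cultures against 100 and 21 in neuron cultures, or 8.05 and 2.17 CPM against 8.41 and 2.14 CPM. The replicate number and not the group separated these values. The difference between replicate 2 and replicate 1 libraries was -1.84 on the log2 scale, while the mean difference between neurons and proliferating cells was 0.02. The fitted log2 fold change was 0.03 (SE 0.82, edgeR adjusted p-value 0.9998), and leaving out neuron replicate 1, proliferating replicate 2, neuron replicate 2 or proliferating replicate 1 gave -1.30, -0.60, 0.70 or 1.28.

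**Figure D2:**
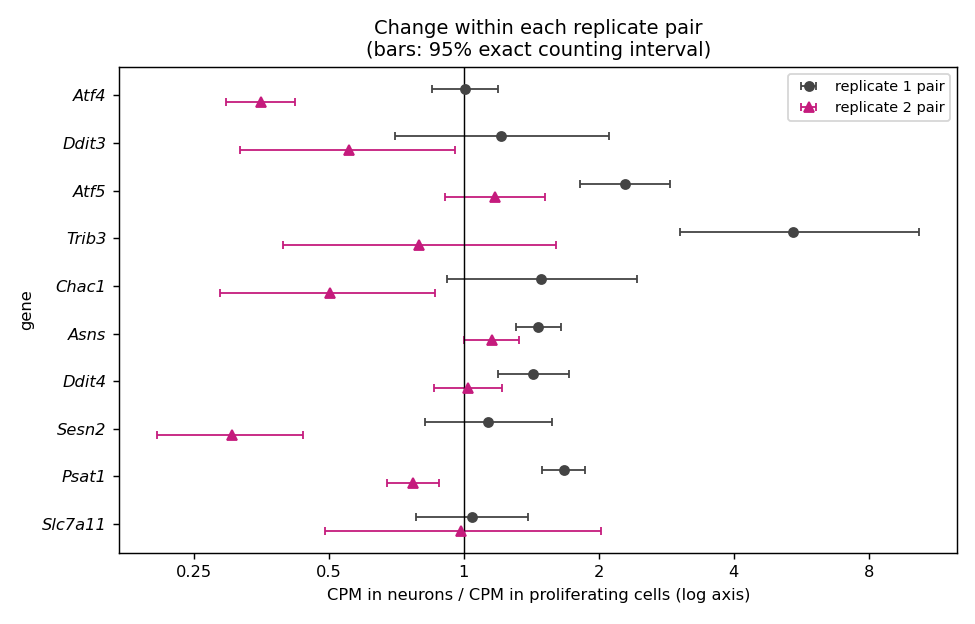
Ratio of CPM in neurons to CPM in proliferating cells (log axis) for each gene within pair 1 (grey circles) and pair 2 (pink triangles), with 95% exact intervals for counting error. In pair 1 5 intervals lie above 1 and 0 below, and in pair 2 1 lies above and 5 lie below. The intervals take the TMM scaling as exact, and these counts were not made over all tested genes.

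By these intervals, several of these differences were larger than counting error. The intervals take the TMM scaling as exact, and the same counts were not made over all tested genes. With library size alone, the median of all tested genes in pair 1 was -0.38, and 6 of the 10 genes were higher in pair 1, beside 24.4%. In pair 1 the intervals of Atf5, Trib3, Asns, Ddit4 and Psat1 lay above 1 and those of the other 5 genes held 1. In pair 2 that of Asns lay above 1, those of Atf4, Ddit3, Chac1, Sesn2 and Psat1 lay below, and 4 held 1. Replicates of the same group also differed beyond counting error. The ratio of replicate 2 to replicate 1 had an interval above 1 for 7 genes and below 1 for 1 gene in proliferating cells, and above 1 for 1 gene and below 1 for 7 genes in neurons. The median absolute difference between the changes of the 2 pairs was 1.09 on the log2 scale for the 10 genes and 0.70 for all tested genes.

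**Figure D3:**
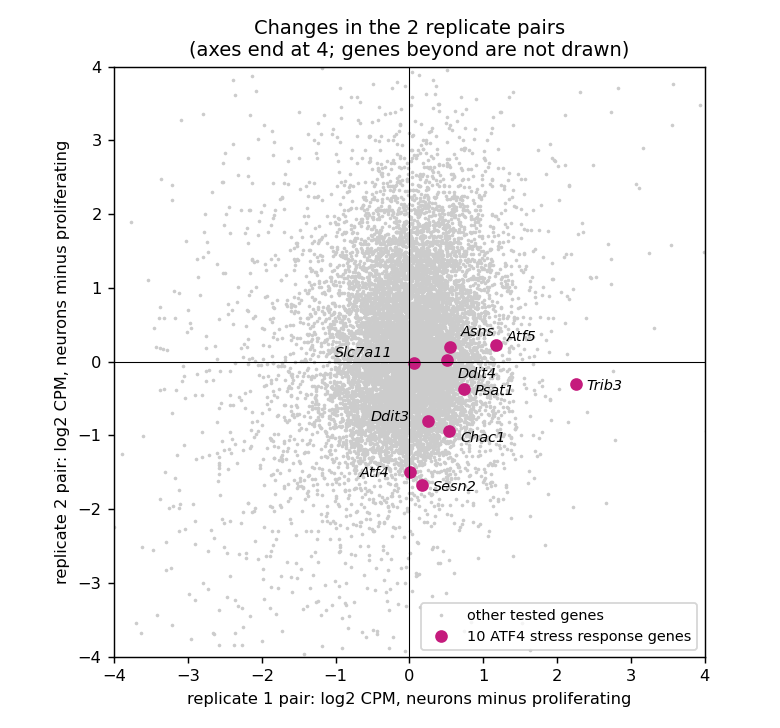
Log2 difference in CPM between neurons and proliferating cells in pair 1 (x axis) and pair 2 (y axis), with the 10 genes in pink and all other tested genes in grey. The 10 genes lie at or right of 0 on the x axis, from 0.01 for Atf4 to 2.26 for Trib3, and between -1.67 (Sesn2) and 0.23 (Atf5) on the y axis.

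The profile of Atf4 over the 4 libraries was compared with the genes of the 9 pathway lists by the root mean square difference of log2 CPM, after each profile was centred on its own mean. The nearest was Sesn2 (0.13), followed by the tryptophanyl-tRNA synthetase gene Wars (0.13) and the endoplasmic reticulum chaperone gene Dnajb9 (0.16). Wars had 133 and 210 counts in proliferating cultures against 112 and 82 in neuron cultures, so it too was highest in proliferating replicate 2 and lowest in neuron replicate 2. Among the 10 genes, the next closest pairs were Ddit3 with Chac1 (0.19) and Asns with Psat1 (0.22), and the farthest pair was Atf4 with Slc7a11 (1.27).

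Counts of the other 9 genes were also set against the Atf4 count of the same library, a ratio that needs no scaling between libraries and that was chosen after the values were seen. In 7 of the 9, both neuron libraries were above both proliferating libraries, beside 34.5% of the 12782 other tested genes. Both were below for 0 of the 9. Of the 12782 genes, 4416 were above and 322 below, so dividing by Atf4 placed most of the separated genes above. By CPM, 12.9% of tested genes were above and 14.5% below. Atf4 itself had its lowest count in neuron replicate 2 and its highest in proliferating replicate 2. Atf5 stood at 38.9% and 25.2% of the Atf4 count in proliferating cultures and at 88.6% and 84.1% in neuron cultures. Asns stood at 181% and 81.4% against 264% and 267%. Trib3 was at 4.91% and 4.46% against 26.4% and 10.1%, and Psat1 at 182% and 108% against 303% and 235%. Ddit4, Chac1 and Ddit3 were likewise higher in both neuron libraries, with Ddit3 at 9.47% and 8.42% against 11.4% and 13.2%. Sesn2 (26.0% and 25.7% against 29.3% and 22.2%) and Slc7a11 (34.4% and 3.96% against 35.7% and 11.1%) overlapped. By CPM only Atf5 and Asns of the 9 had both neuron libraries above, so 7 of 9 describes this ratio and not the levels. Relative to the Atf4 count, both neuron libraries were also above for 14 of 20 tRNA synthetase genes, 8 of 12 amino acid enzyme genes and 4 of 7 amino acid transporter genes. The counts were 2 of 7 for the ATF4 partners and other bZIP factors, 3 of 16 for the eIF2 list, 2 of 13 for the other stress outputs downstream of ATF4, 2 of 18 for the ATF6 and XBP1 genes and 1 of 9 for the NRF2 genes. No test was made of this ratio.

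**Figure D4:**
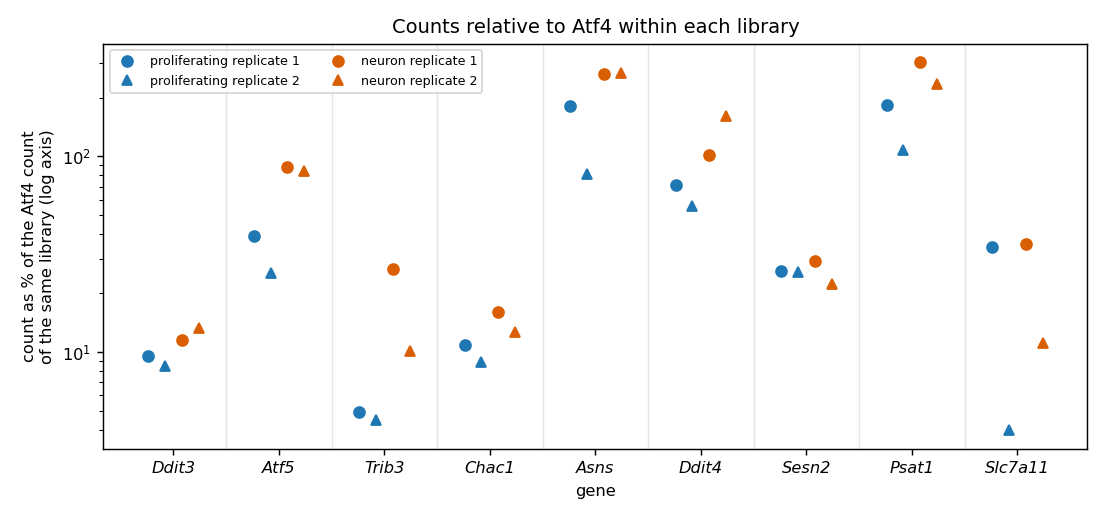
Counts of 9 genes as a percentage of the Atf4 count of the same library (log axis), with circles for replicate 1, triangles for replicate 2, blue for proliferating cells and orange for neurons. Both neuron libraries lie above both proliferating libraries for 7 of the 9, beside 34.5% of the other tested genes, and Sesn2 and Slc7a11 overlap.

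Levels of different genes were compared per length, as CPM per kilobase of GENCODE M21 exon sequence averaged over the 4 libraries. The order was Asns (18.3), Ddit4 (14.6), Psat1 (12.8), Atf4 (12.8), Atf5 (7.53), Sesn2 (2.25), Chac1 (2.08), Ddit3 (1.76), Trib3 (1.38) and Slc7a11 (0.373). The ranges over libraries of neighbours in this order overlapped except between Atf5 (4.58 to 10.5) and Sesn2 (1.23 to 4.05). The genes therefore fell into a group of 5 with higher and a group of 5 with lower levels per length. By the authors' RPKM, Ddit4 came first with a mean of 14.9 and Asns, with 8.70, after Ddit4, Psat1 and Atf4, because the length implied by RPKM is 6147 bases for Asns against 2735 bases of exons in GENCODE.

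The other genes of the pathway and of neighbouring stress pathways were taken from 8 lists of 109 different genes, of which 101 were tested. With edgeR 0 of the 101 were called, and 0 were higher and 5 lower in neurons at an unadjusted p-value under 0.05. Both counts stand beside the 0.915% and 2.51% of all tested genes given above. The counts of genes higher or lower in both pairs given below for each list stand beside 28.8% and 25.5% of all tested genes.

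Upstream of ATF4, the list of eIF2 kinases, eIF2 and eIF2B subunits and phosphatase regulators had 16 tested genes, 1 higher and 8 lower in neurons in both pairs. The median log2 fold change was -0.26, against 0.02 for all tested genes, with medians of -0.37 in pair 1 and -0.26 in pair 2. It was -0.56 without proliferating replicate 1. Ppp1r15a encodes GADD34, the ATF4-induced phosphatase subunit that reverses eIF2 phosphorylation. It had 66 and 90 counts in proliferating cultures against 39 and 46 in neuron cultures, and a log2 fold change of -1.14 (SE 0.58, unadjusted p-value 0.0874). The gene higher in both pairs was Eif2s2, an eIF2 subunit, with 226 and 55 counts against 372 and 112. The kinase gene Eif2ak3, which encodes PERK, had 115 and 116 counts in proliferating cultures against 87 and 88.

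Of the ATF4 partners and other stress bZIP factors, 7 of 9 were tested, 2 higher and 4 lower in both pairs, with a median log2 fold change of -0.13 and medians of -0.043 and -0.52 in pairs 1 and 2. The fitted median was -0.81 without neuron replicate 2, -0.74 with proliferating replicate 1 left out, -0.25 with neuron replicate 1 left out and 0.0020 with proliferating replicate 2 left out. Jun, an AP-1 subunit, had 234 and 485 counts in proliferating cultures against 81 and 90 in neuron cultures. Its log2 fold change was -2.41 (SE 0.67, unadjusted p-value 0.00807, edgeR adjusted p-value 0.93). Cebpd had 23 and 15 counts against 1 and 3 (unadjusted p-value 0.0118). The C/EBP partner gene Cebpg had 164 and 64 counts in proliferating cultures against 192 and 106 in neuron cultures, a log2 fold change of 0.28 (SE 0.51).

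Like the 10 genes, the lists of metabolic and translation genes downstream of ATF4 had medians of opposite sign in the pairs with TMM scaling. Their pair medians were not computed with library size alone, which put the median of all tested genes in pair 1 at -0.38. Amino acid synthesis and one-carbon enzymes had 12 tested genes, 4 higher and 0 lower in both pairs, with medians of 0.28 in pair 1 and -0.10 in pair 2. Psph, the last enzyme of serine synthesis, had 119 and 56 counts in proliferating cultures against 238 and 88 in neuron cultures. Pycr1, of proline synthesis, had 30 and 18 against 44 and 36. TGATGCAA was in the promoter windows of Pycr1 and of Got1. The log2 difference of Got1 was 0.21 in pair 1 and -0.64 in pair 2. Amino acid transporters had 7 tested genes, 0 higher and 2 lower in both pairs, with medians of 0.29 and -0.90. Slc1a5, a glutamine transporter, had 180 and 163 counts in proliferating cultures against 106 and 112 in neuron cultures. Cytosolic aminoacyl-tRNA synthetases had 20 tested genes, 6 higher and 3 lower in both pairs, with medians of 0.19 and -0.18. Qars, for glutamine, had 258 and 160 counts against 388 and 310. TGATGNAA was found in the windows of 5 of the 13 synthetase genes in the promoter table (Aars, Gars, Iars, Tars and Yars). It was in 2 of 7 bZIP, 2 of 11 amino acid enzyme, 1 of 6 transporter, 3 of 13 other stress output and 1 of 13 eIF2 list genes. The counts were 0 of 15 for the ATF6 and XBP1 genes and 0 of 7 for the NRF2 genes. Beside 4.51% of all genes with a promoter, 0 in lists this short says little.

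Other stress outputs downstream of ATF4 had 13 tested genes, 1 higher and 4 lower in both pairs, with a median log2 fold change of -0.10 and medians of -0.41 and -0.12 in pairs 1 and 2. Leaving out neuron replicate 2 gave a median of -0.41, and leaving out proliferating replicate 1 gave -0.21. Cdkn1a, the CDK inhibitor p21, had 27 and 31 counts in proliferating cultures against 6 and 20 in neuron cultures.

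The list for the ATF6 and XBP1 arms of the endoplasmic reticulum stress response had 13 of 18 tested genes lower in neurons in both pairs and 1 higher, beside 25.5% and 28.8% of all tested genes. Its medians were -0.43 in pair 1 and -0.85 in pair 2, so both were below 0, as they were for the eIF2 list, the bZIP factors, the other stress outputs and the NRF2 list. Hspa5 encodes BiP, the main chaperone of the endoplasmic reticulum. It had 1085 and 1064 counts in proliferating cultures against 430 and 519 in neuron cultures, or 89.1 and 144 CPM against 36.2 and 52.9 CPM. The groups did not overlap, and the log2 fold change was -1.39 (SE 0.49, unadjusted p-value 0.0235, edgeR adjusted p-value 0.9998). Calr, an endoplasmic reticulum calcium-binding chaperone, had 1052 and 1585 counts against 567 and 935, and Pdia4 had 539 and 363 against 299 and 269. Leaving out proliferating replicate 2 gave a list median of -0.26, and leaving out proliferating replicate 1 gave -0.97.

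NRF2 antioxidant genes, which share the target Slc7a11 with ATF4, had 9 tested genes, 0 higher and 7 lower in both pairs, with a median log2 fold change of -0.58 and medians of -0.57 and -0.71 in pairs 1 and 2. Nfe2l2, which encodes NRF2, had 147 and 72 counts in proliferating cultures against 46 and 57 in neuron cultures (log2 fold change -1.18, SE 0.50, unadjusted p-value 0.0479). Srxn1, a sulfiredoxin, had 17 and 52 counts against 6 and 3 (unadjusted p-value 0.0103). Slc7a11 did not share this direction, at 0.06 in pair 1 and -0.02 in pair 2 on the log2 scale. The median of this list was -1.03 without proliferating replicate 1 and -0.90 without neuron replicate 2.

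**Figure D5:**
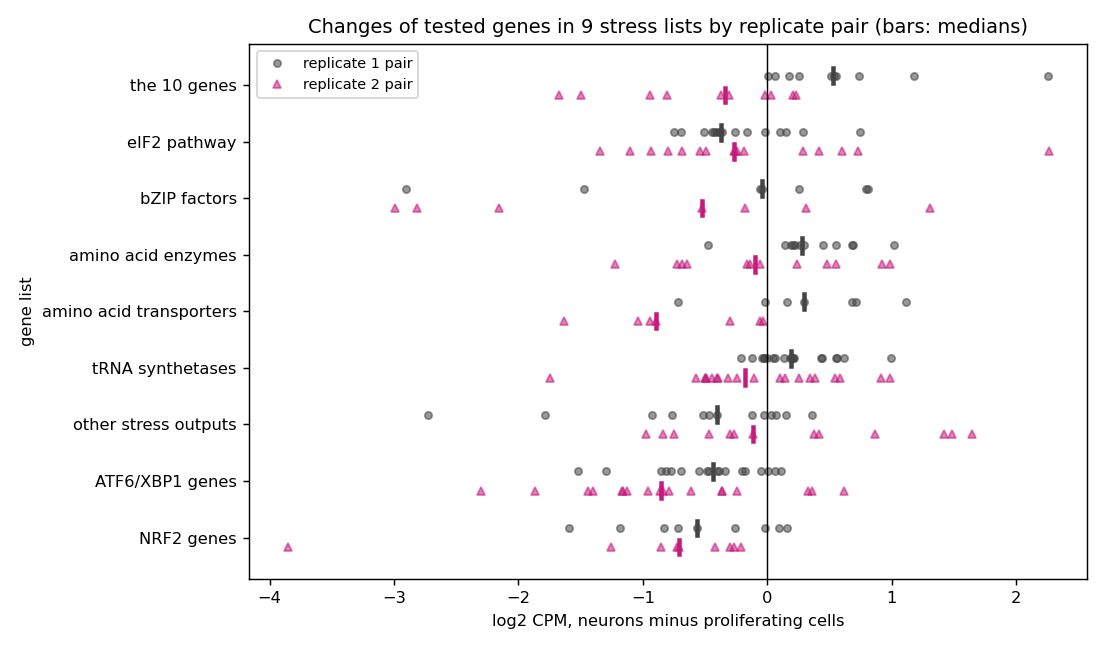
Log2 difference in CPM between neurons and proliferating cells for each tested gene of 9 lists (rows), with grey circles for pair 1, pink triangles for pair 2 and bars for medians. CPM is TMM-scaled, and pair medians of the lists beside the 10 genes were not computed with library size alone. The medians of the 10 ATF4 genes lie on opposite sides of 0 (0.52 and -0.34), as do those of the amino acid enzymes, amino acid transporters and tRNA synthetases; both medians of each of the other 5 lists lie below 0.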

How the data were processed

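The authors deposited raw counts per gene symbol and RPKM values for 4 libraries of total RNA. Ribosomal RNA was depleted from 500 ng, and stranded libraries were made with a Takara kit, per the labels' protocols. The submitters' processing notes name HISAT2, SAMtools, featureCounts, DESeq2, deepTools 3.4.3 and the build mm10, without their roles. The strand setting and the treatment of reads with several matches are not given in the sources used here. Each deposited RPKM equals the count divided by the column total and a length per gene.

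Groups and replicate numbers came from the titles. Counts of all genes were fitted with edgeR 4.0.16 in R 4.3.3 (TMM, filterByExpr with a minimum count of 10 and total of 15, glmQLFit, glmQLFTest, group as the only term, two-sided), and Benjamini-Hochberg adjusted p-values over 12783 genes. Log2 differences within pairs use CPM with a prior count of 2. Exact intervals (Clopper-Pearson) cover counting error only, since reads without molecular identifiers are not independent molecules. With 2 libraries against 2, an exact permutation cannot give a two-sided p below 0.333, so none was run. The labels call the replicates biological without saying what separates them, so the spread may be partly technical. Both replicate 2 titles say set 2, and deviations of same-numbered libraries from their group means correlated across genes (r = 0.33), so the number was taken to mark a shared set.

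The 10 genes, the lists and the tests were chosen with earlier results of these data known. Named genes were the 10, the nearest profiles to Atf4, and at most 4 per list with the largest difference of the same sign in both pairs. Mars1, Nup62, the marker genes, the eIF2 kinase genes, and Sesn1 and Sesn3 were named outside that rule, after their values were seen. Got1, Aars, Gars, Iars, Tars and Yars were named outside it for the motif in their promoter windows. Through the RefSeq table, 3 older symbols were replaced. Sequences are RefSeq's (GRCm38.p6). Alternatives were RLE factors, library size alone, DESeq2 1.42.0, no filter, no 18S row, a replicate block, limma 3.58.1 on log2(RPKM + 1) and log2(RPKM + 0.1), and leaving out each library. The fitting code was tested on simulated data. Python 3.11.15 with pandas 2.3.3 and scipy 1.17.1 gave the remaining values.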

Additional observations from a re-analysis of the deposited data

How the results depend on the processing

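Over 12 alternatives, 0 of the 120 values of the 10 genes were called. The direction was unchanged in 107, in all 12 alternatives for Atf4, Atf5, Trib3, Asns and Sesn2. The 13 that reversed, with the cause not tested, came from leaving out a library, from library size alone or from limma on log2 RPKM, which changes the scaling, the pseudocount and the model together. Without a library, the log2 fold change ranged from -0.83 to 0.24 for Ddit3 (positive at 0.24 without proliferating replicate 2), from -0.66 to 0.29 for Chac1 (0.04 without neuron replicate 2), from -0.17 to 0.72 for Ddit4, from -0.20 to 0.49 for Psat1 (-0.03 without proliferating replicate 1) and from -1.30 to 1.28 for Slc7a11 (-0.60 without proliferating replicate 2). Psat1 was -0.030 on log2(RPKM + 1) and -0.043 on log2(RPKM + 0.1), and Slc7a11 was -0.035, -0.13 and, with library size alone, -0.29. These settings moved the median of all tested genes from 0.02 to -0.064, -0.15 and -0.27, and leaving out a library to between -0.077 and 0.065.

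Called genes numbered 0 higher and 0 lower with edgeR. There were 41 and 122 without a filter, 11 and 43 with DESeq2, 0 and 2 with library size alone, 0 and 1 on log2(RPKM + 1), 0 and 2 on log2(RPKM + 0.1), and 1 to 37 higher and 9 to 90 lower without a library, most of them without proliferating replicate 1. With the replicate number as a block 0 were higher and 3 lower, none among the 10 genes, and the pairing changed no other call. With a library left out its group has 1 library, assumed to vary like the other group.

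List medians kept their place within the spread between pairs, except as follows. With library size alone the eIF2 list was at -0.51, the other stress outputs at -0.39 and the NRF2 list at -0.87. On log2(RPKM + 0.1) they were at -0.45, -0.42 and -0.74. Without a library the medians ranged from -0.56 to -0.26 for the eIF2 list, -0.81 to 0.0020 for the bZIP factors, -0.41 to -0.078 for the other stress outputs, -0.97 to -0.26 for the ATF6 and XBP1 list and -1.03 to -0.42 for the NRF2 list. Depth limits Ddit3, Trib3, Chac1 and Slc7a11 most, with 14 to 100 counts a library.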

Other observations

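Sesn2 has 2 paralogs, Sesn1 and Sesn3, which were looked at after their values were seen. Sesn1 had 127 and 38 counts in proliferating cultures against 93 and 138 in neuron cultures. Sesn3 had 299 and 46 counts in proliferating cultures against 204 and 195 in neuron cultures. In pair 2 the log2 difference between neurons and proliferating cells was 1.42 for Sesn1 and 1.64 for Sesn3, against -1.67 for Sesn2. In pair 1 it was -0.41, -0.51 and 0.18 in the same order. By TMM-scaled CPM the paralogs thus had the opposite sign to Sesn2 in both pairs. By RPKM all 3 genes were lower in neurons in pair 1. Proliferating replicate 2, the library with the fewest genes detected, was the lowest in counts for Sesn1 and Sesn3 and the highest for Sesn2. None of the 3 was called by edgeR (unadjusted p-values 0.427, 0.708 and 0.194).

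Eif2ak2, which encodes the double-stranded RNA sensor kinase PKR and was picked here with its counts already known, had 74 and 7 counts in proliferating cultures against 50 and 52 in neuron cultures. Its log2 difference was -0.51 in pair 1 and 2.27 in pair 2. In pair 2 the other eIF2 kinase genes Eif2ak1, Eif2ak3 and Eif2ak4 were at -0.26, -0.79 and 0.41.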
